A study of Homo sapiens with 8 samples.

Results

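Tumour cells of pancreatic ductal adenocarcinoma (PDA) secrete chemokines and cytokines, and 10 such genes are described here in every library: the chemokines *CXCL1*, *CXCL2*, *CXCL3*, *CXCL5*, *CXCL8*, *CXCL16* and *CCL20*, the interleukins *IL1A* and *IL18*, and *LIF*. They were chosen by symbol, mapped to the NCBI gene numbers of the count tables, and are 10 of the 25702 genes listed there. RNA-seq was performed on SUIT2, an established human PDA cell line of epithelial origin, in 8 libraries: 4 labelled shScr (scramble shRNA), 2 labelled shEN1 #1 and 2 labelled shEN1 #2, the last being a pair of *EN1* shRNA constructs that the labels spell shEn1. *EN1* encodes Engrailed-1, a homeodomain transcription factor, and the comparison asks which transcripts differ once its shRNA is introduced. All cells carried an shRNA, no untransduced cells were analysed here, and RNA was collected from cells grown to partial confluence as a 2D culture. The labels give no culture, lane or date, so p-values measure only the spread between these libraries, which may be technical.

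CXC chemokines with an ELR motif draw neutrophils through the receptors CXCR1 and CXCR2, whereas CCL20 acts through CCR6 on lymphocytes and dendritic cells, and CXCL16 is a membrane-bound ligand of CXCR6 that ADAM proteases release. IL-1α and IL-18 are made as precursors, with IL-18 being cut by caspase-1 and IL-1α by calpain, and both signal through MYD88 and IRAK kinases to NF-κB, the factor that in turn drives transcription of most of these chemokines. LIF is a cytokine of the IL-6 family that signals through LIFR and gp130 (*IL6ST*) to JAK and STAT3, and in PDA it is known as a signal between stroma and tumour cells.

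The ELR chemokine genes lie side by side, and 5 of the 10 genes fell within 358.678 kb of chromosome 4 (GRCh37, GENCODE annotation): *CXCL8* at chr4:74606236-74609433 and *CXCL1* at chr4:74735110-74737025 on the plus strand, and *CXCL5* at chr4:74861359-74864394, *CXCL3* at chr4:74902306-74904524 and *CXCL2* at chr4:74962757-74964913 on the minus strand. The others were *CXCL16* at chr17:4636828-4643223 (minus), *CCL20* at chr2:228670455-228682280 (plus), *IL1A* at chr2:113531502-113542070 (minus), *IL18* at chr11:112013976-112034819 (minus) and *LIF* at chr22:30636442-30642748 (minus). *CXCL1*, *CXCL2* and *CXCL3* are close copies of one another. Their transcripts were 90.5% identical over 1094 aligned bases for *CXCL1* and *CXCL2*, with a longest identical run of 77 bases, 80.7% identical over 1021 bases for *CXCL2* and *CXCL3*, with a run of 97 bases, and 79.6% identical over 1024 bases for *CXCL1* and *CXCL3*, with a run of 55 bases. How the counting treated reads that match more than 1 copy is not given in the sources used here, so the split of reads among these 3 genes is uncertain.

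Shown are the 100 bases before the RefSeq start of the 5 chromosome 4 genes, because these chemokines are textbook NF-κB targets and each of the windows held the same κB-like match. The sequences are RefSeq promoters of GRCh38.p14 that were placed on GRCh37 by exact match, at chr4:74735010-74735109 (plus) for *CXCL1*, chr4:74964913-74965012 (minus) for *CXCL2*, chr4:74904407-74904506 (minus) for *CXCL3*, chr4:74864395-74864494 (minus) for *CXCL5* and chr4:74606186-74606285 (plus) for *CXCL8*. The RefSeq starts differ from those of GENCODE for *CXCL2*, *CXCL3* and *CXCL8*, so that the stretch of *CXCL3* lies wholly, and those of *CXCL8* and (by 1 base) *CXCL2* partly, inside the GENCODE span given above. Capitals mark a match to GGAATTTCC on either strand or to TATAAA on the gene's strand.
CXCL1: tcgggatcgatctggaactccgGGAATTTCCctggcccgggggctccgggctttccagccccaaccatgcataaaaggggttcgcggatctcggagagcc
CXCL2: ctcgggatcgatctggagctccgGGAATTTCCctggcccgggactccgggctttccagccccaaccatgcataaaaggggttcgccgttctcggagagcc
CXCL3: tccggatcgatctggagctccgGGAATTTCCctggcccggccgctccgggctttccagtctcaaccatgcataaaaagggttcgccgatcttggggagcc
CXCL5: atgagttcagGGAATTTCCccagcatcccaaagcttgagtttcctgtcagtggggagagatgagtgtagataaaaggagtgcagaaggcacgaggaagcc
CXCL8: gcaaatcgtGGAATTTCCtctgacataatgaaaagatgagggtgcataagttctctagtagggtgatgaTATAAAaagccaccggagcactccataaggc

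Of the 10 genes, 7 matched an entry of the promoter table, and *CXCL16*, *IL18* and *LIF* did not. In windows from 250 bases before to 50 after the start, GGAATTTCC was found in all 5 chromosome 4 genes. Over all promoters it was found in 162 of 35116 (0.461%). This is no test of enrichment, because the 5 genes are known NF-κB targets, and *CXCL1*, *CXCL2* and *CXCL3* are close copies. The match, which ran along the gene's strand in each, began 78 bases before the start in *CXCL1* and *CXCL3*, 77 bases before it in *CXCL2*, 90 bases before it in *CXCL5* and 91 bases before it in *CXCL8*. This exact spelling was not found in *CCL20* or *IL1A*, and other spellings of a κB motif were not searched. TATAAA, searched on the gene's strand, lay 31 bases before the start of *CXCL8*, 29 bases before that of *CCL20* and farther upstream in *IL1A* (7.33% of promoters). Other spellings of this motif were not searched either, such as the cataaaa of *CXCL1*, *CXCL2* and *CXCL3* or the gataaaa of *CXCL5* printed above. A missing match therefore does not mean that a TATA element is absent. TGANTCA, an AP-1-like motif searched on both strands, was found in *CXCL8* and *IL1A* (7.71%). These are matches of letters and were not tested as binding sites.

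Library totals lay between 33423590 and 37810604 counts. Markers of pancreatic epithelium were all detected (8 of 8 passed the filter on low counts, led by *KRT8*, *KRT18*, *KRT19* and *KRT7*). Of 10 leukocyte markers only *CD68* passed it, and *PTPRC*, *CD3E*, *CD3D*, *MS4A1*, *S100A8* and *FCGR3A* had 0 counts in all 8 libraries. The summed leukocyte marker CPM was 9.29 to 28.2 in the libraries labelled shScr and 8.08 to 35.0 in those labelled shEN1. Only *COL1A1* of 6 fibroblast markers passed the filter, with *COL1A2*, *DCN* and *LUM* at 0 and sums of 1.27 to 4.28 CPM and 1.17 to 2.86 CPM. Only *VWF* of 4 endothelial markers did, with *CDH5* and *KDR* at 0 and sums of 0.316 to 0.603 CPM and 0.364 to 0.676 CPM. On the first principal component, 2 libraries, labelled shScr replicate 4 and shEN1 #2 replicate 1, stood apart from the other 6 (44.4% of the variance, scores of 59.2 and 62.1 against -27.6 to -9.15). *EN1* was not lower in the libraries labelled shEN1. In shScr replicates 1 to 4 its level was 4.10, 4.50, 4.94 and 2.51 CPM, in shEN1 #1 it was 5.77 and 5.41 CPM, and in shEN1 #2 it was 1.35 and 6.70 CPM. The 2 lowest, shEN1 #2 replicate 1 and shScr replicate 4, were the libraries that stood apart, and the first lay below every shScr library. The log2 fold change of shEN1 over shScr was 0.26 (SE 0.43, 95% interval -0.70 to 1.22). It was 0.57 without shEN1 #2 replicate 1 and 0.089 without shScr replicate 4. The interval holds a loss as well as a gain, so every direction given below refers to the label and not to a measured loss of *EN1*.

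Levels are given as CPM, that is, counts scaled to TMM-normalized library sizes of 1000000, and levels of different genes were compared per kb of transcript. On that scale *IL18* ranked first with 38.1 ± 8.20 CPM per kb (SD, n = 8 libraries), followed by *LIF* with 18.8 ± 4.58 and *CXCL16* with 18.4 ± 3.19 CPM per kb. The ELR chemokines were far lower, with 1.07 ± 0.649 for *CXCL2*, 0.810 ± 0.304 for *CXCL1*, 0.652 ± 0.374 for *CXCL3* and 0.309 ± 0.213 CPM per kb for *CXCL8*. *CCL20* (0.192 ± 0.172), *IL1A* (0.113 ± 0.108) and *CXCL5* (0.0857 ± 0.105 CPM per kb) closed the order. Among neighbours in this order, only the ranges of *CXCL16* and *CXCL2* did not overlap, while *IL18* exceeded *LIF* in 8 of 8 libraries although their ranges overlapped. *LIF* and *CXCL16* could not be ordered, since *LIF* was higher in 5 of 8 libraries. The lower 7 genes were likewise not separated from their neighbours, each exceeding the next in 4 to 6 of 8 libraries. Among the 14333 genes tested, *IL18* stood at percentile 84.6 of CPM per kb, *LIF* at 71.7 and *CXCL16* at 71.3, against 17.5 for *CXCL2* and 6.84 for *CXCL8*.

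*IL18*, *LIF* and *CXCL16* made up 95.6% to 98.8% of the summed CPM of the 10 genes in each library. The sum itself ranged from 128.8 CPM in the library labelled shEN1 #1 replicate 1 to 193.2 CPM in shScr replicate 1. The 5 chromosome 4 genes together gave 2.12 to 5.56 CPM, or 69 to 189 counts per library. In bulk RNA, fewer expressing cells and less RNA per cell cannot be told apart.

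**Figure D1:**
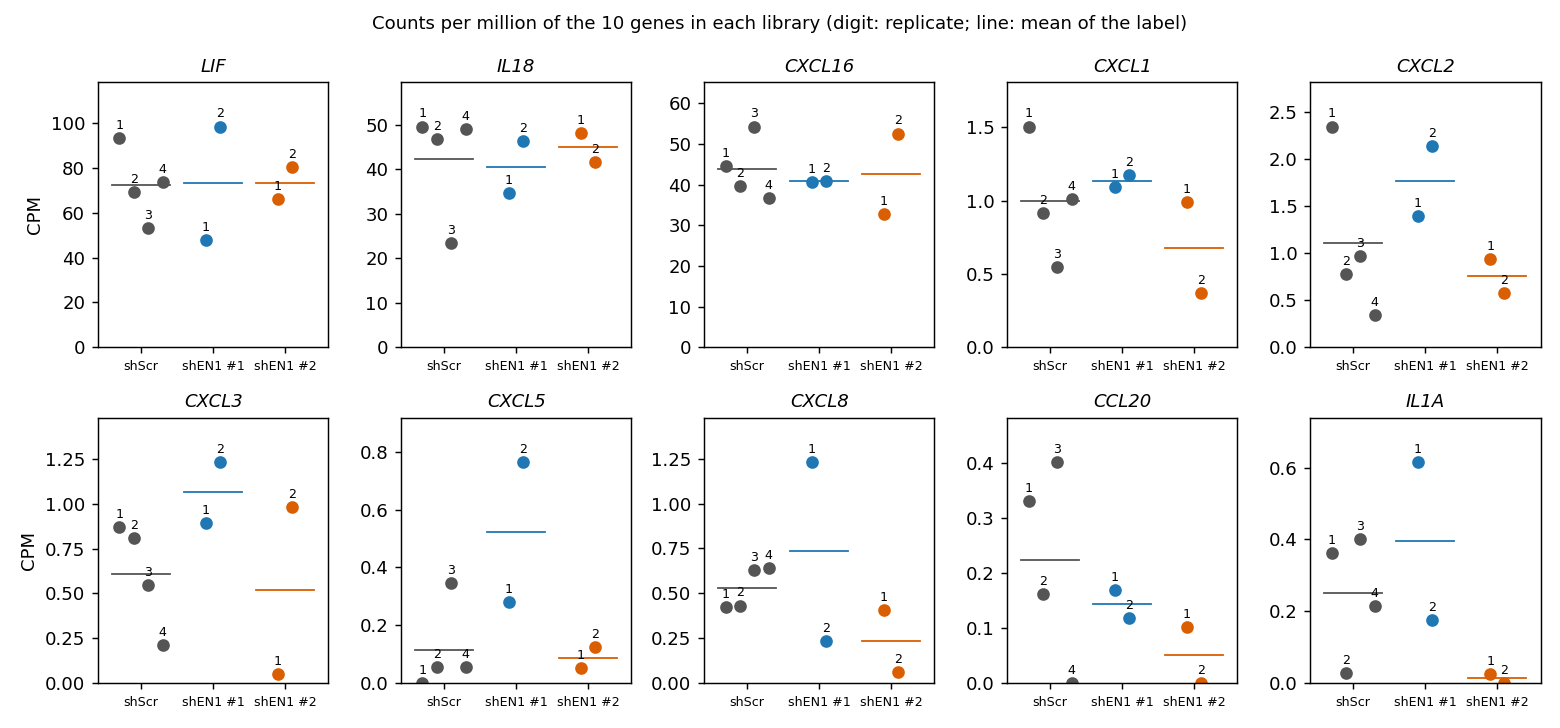
CPM (y axis, from 0, a different scale for each gene) of the 10 genes in each library, grouped on the x axis by label; digits are replicate numbers and lines are the mean of each label. *LIF*, *IL18* and *CXCL16* lie between 23.5 and 98.3 CPM and the other 7 genes at or below 2.35 CPM, and for each gene the points labelled shEN1 overlap those labelled shScr.

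*LIF*, the gp130 cytokine, reached 93.0, 69.0, 52.9 and 73.7 CPM in shScr (replicates 1 to 4), 47.7 and 98.3 CPM in shEN1 #1 (replicates 1 and 2), and 66.1 and 80.3 CPM in shEN1 #2 (replicates 1 and 2), the names being those of the labels here and throughout. The lowest and the highest library were both labelled shEN1 #1, a 2.06-fold range inside which all other libraries fell. The means were 72.2 ± 16.5 CPM (SD, n = 4) for shScr and 73.1 ± 21.4 CPM (n = 4) for shEN1. The log2 fold change was 0.019 (SE 0.23, 95% interval -0.49 to 0.53), with an adjusted p = 1.00 by the quasi-likelihood test of edgeR after Benjamini-Hochberg adjustment over 14333 genes. The span of *LIF* shares 86 bases with that of *LIF-AS1* and 555 bases with that of *LIF-AS2*, both on the other strand, and the strand setting of the counting is not given in the sources used here.

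*IL18*, the caspase-1 substrate, measured 49.6, 46.8, 23.5 and 49.0 CPM in shScr, 34.6 and 46.4 CPM in shEN1 #1, and 48.2 and 41.7 CPM in shEN1 #2, in the same order of replicates. The library labelled shScr replicate 3 was the lowest and shEN1 #1 replicate 1 the next, while the other 6 lay close together. Between the labels its log2 fold change was 0.018 (SE 0.22, 95% interval -0.48 to 0.52, edgeR adjusted p = 1.00). The span of a further gene annotated on the opposite strand covers that of *IL18* whole, introns included, and whether their exons overlap was not examined.

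*CXCL16*, the CXCR6 ligand, was the least variable, with 44.7, 39.6, 54.3 and 36.7 CPM in shScr, 40.8 and 40.9 CPM in shEN1 #1, and 32.9 and 52.6 CPM in shEN1 #2. The highest library was labelled shScr and the lowest shEN1, yet the second highest was shEN1 #2 replicate 2. The log2 fold change was -0.068 (SE 0.17, 95% interval -0.45 to 0.31, edgeR adjusted p = 1.00). For these 3 genes the intervals leave room for changes of up to 1.44-fold upward (*LIF*) and down to 0.712-fold (*LIF*). These widths reflect both the 4 against 4 libraries and the spread between them. Their signs rested on single libraries. *LIF* fell below 0 (-0.16 to -0.0020) without shScr replicate 2 or 3, or without replicate 2 of shEN1 #1 or shEN1 #2, *IL18* (-0.18 to -0.027) without shScr replicate 3, shEN1 #1 replicate 2 or shEN1 #2 replicate 1, and *CXCL16* came to 0.052 without shScr replicate 3 and 0.028 without shEN1 #2 replicate 1. At its ends *CXCL16* overlaps *MED11* by 76 bases and *ZMYND15* by 96, both on the other strand.

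The growth-related chemokines *CXCL1*, *CXCL2* and *CXCL3*, neutrophil attractants, were each detected in all 8 libraries at 2 to 78 counts. *CXCL1* measured 1.51, 0.917, 0.545 and 1.01 CPM in shScr, 1.09 and 1.18 CPM in shEN1 #1, and 0.991 and 0.369 CPM in shEN1 #2. The highest was shScr replicate 1 and the lowest shEN1 #2 replicate 2, and the groups overlapped. *CXCL2* measured 2.35, 0.782, 0.976 and 0.347 CPM in shScr, 1.40 and 2.15 CPM in shEN1 #1, and 0.940 and 0.584 CPM in shEN1 #2. Here both extremes were labelled shScr, in replicates 1 and 4. *CXCL3* measured 0.874, 0.809, 0.545 and 0.214 CPM in shScr, 0.896 and 1.24 CPM in shEN1 #1, and 0.0508 and 0.983 CPM in shEN1 #2. Its 2 lowest libraries, shEN1 #2 replicate 1 with 2 counts and shScr replicate 4, are those that stood apart from the rest; without both, the log2 fold change was 0.48 in place of 0.37.

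None of the 3 passed the test. The log2 fold changes were -0.13 for *CXCL1* (SE 0.47, 95% interval -1.18 to 0.92), 0.19 for *CXCL2* (SE 0.60, -1.13 to 1.51) and 0.37 for *CXCL3* (SE 0.74, -1.28 to 2.02), each with an edgeR adjusted p = 1.00. A single library set the sign for the first pair. *CXCL1* came to 0.14 without shScr replicate 1 and to 0.13 without shEN1 #2 replicate 2. *CXCL2* came to -0.11 without shScr replicate 4, to -0.18 without shEN1 #1 replicate 2 and to 0.85 without shScr replicate 1.

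*CXCL8*, encoding the neutrophil attractant interleukin-8, measured 0.422, 0.431, 0.631 and 0.641 CPM in shScr, 1.23 and 0.235 CPM in shEN1 #1, and 0.406 and 0.0615 CPM in shEN1 #2. The libraries labelled shScr lay close together, and those labelled shEN1 surrounded them, one above and 3 below. Over all libraries its log2 fold change was -0.13 (SE 0.72, 95% interval -1.71 to 1.46, edgeR adjusted p = 1.00). It came to -1.15 without shEN1 #1 replicate 1, to 0.11 without shEN1 #1 replicate 2 and to 0.23 without shEN1 #2 replicate 2.

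The remaining genes were at the edge of detection and did not pass the filter on low counts. *CXCL5*, a further neutrophil attractant whose gene overlaps another on the opposite strand by 745 bases, measured 0, 0.0539, 0.344 and 0.0534 CPM in shScr, 0.280 and 0.765 CPM in shEN1 #1, and 0.0508 and 0.123 CPM in shEN1 #2, from 58 counts in all. *CCL20* measured 0.331, 0.162, 0.402 and 0 CPM in shScr, 0.168 and 0.118 CPM in shEN1 #1, and 0.102 and 0 CPM in shEN1 #2, from 45 counts. *IL1A* measured 0.362, 0.0270, 0.402 and 0.214 CPM in shScr, 0.616 and 0.177 CPM in shEN1 #1, and 0.0254 and 0 CPM in shEN1 #2, from 64 counts. The libraries of both labels overlapped for each of them, and a count of 0 allows a level of up to 0.0762 to 0.0922 CPM (3 counts per library, counting error only), or up to 0.152 to 0.184 CPM if each fragment gave 2 counts. All 4 libraries labelled shEN1 lay below the shScr mean for *CCL20*, and 3 of 4 lay above it for *CXCL5*. Fitted without the filter, the log2 fold changes were -1.15 (SE 1.18) for *CCL20*, 1.42 (SE 1.15) for *CXCL5* and -0.27 (SE 1.15) for *IL1A*, each with an edgeR adjusted p = 1.00. No difference in these genes was detected, and they rest on few counts.

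Counts of weakly expressed genes were mostly even numbers. In each library, 69.8% to 74.0% of genes with 1 to 12 counts held an even count, against 49.1% to 51.1% of genes with 1000 counts or more. Where both mates of a read pair are counted, 1 fragment gives 2 counts, and the effective depth of *CXCL5*, *CCL20* and *IL1A* would then be lower than their counts; the cause was not tested.

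Of the 10 genes, 7 entered the test and 0 passed an adjusted p of 0.05 by edgeR between the libraries labelled shEN1 and shScr, where 0 of all 14333 genes did (0.0%). At an unadjusted p below 0.05 it was 0 of 7 against 44 genes in all (0.307%), and the lowest unadjusted p among the 7 was 0.629, for *CXCL3*. Evenly spread p-values would put a share of 0.05 below that threshold. The p-values were thus larger than an even spread gives, so 0 of 7 says little about these genes. Why they were larger was not tested. DESeq2 and limma-voom, run on the same 7, likewise called 0 of them, while DESeq2 called 2 other genes. The libraries of both labels overlapped in CPM for each of the 10, against 60 genes (0.419%) for which they did not. Of the 7, 4 were higher and 3 lower by the sign of the fold change, with a median of 0.018 against -0.0028 over all genes tested.

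**Figure D2:**
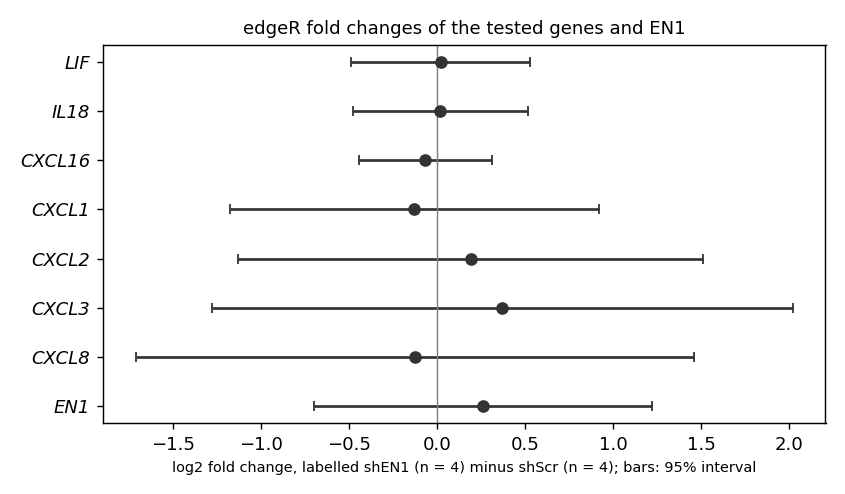
Log2 fold change (x axis) of the 7 tested genes and *EN1* between libraries labelled shEN1 and shScr (n = 4 each), with points for edgeR's estimate and bars for the 95% interval. All intervals hold 0, and they widen from *CXCL16* (-0.45 to 0.31) to *CXCL3* (-1.28 to 2.02).

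The constructs were also compared one by one in a fit with 3 groups, in which both share the 4 libraries labelled shScr. For shEN1 #1, 0 of 7 genes passed the adjusted threshold by edgeR and 0 an unadjusted p below 0.05 (0.0% and 0.656% of all genes). For shEN1 #2 it was 0 and 0 as well (0.0% and 0.3%), and between the constructs 0 and 0 (0.0% and 1.07%). The counts of all genes at an unadjusted p rested on single libraries. Without shScr replicate 4, a library that stood apart, they rose from 43 to 337 for shEN1 #2 and from 153 to 374 between constructs. The 4 tested ELR chemokines had fold changes above 0 for shEN1 #1 and below 0 for shEN1 #2. On the log2 scale these were 0.19 and -0.54 for *CXCL1*, 0.67 and -0.54 for *CXCL2*, 0.80 and -0.26 for *CXCL3*, and 0.47 and -1.14 for *CXCL8*. The difference between constructs (shEN1 #2 minus shEN1 #1) was widest for *CXCL8*, at -1.61 (95% interval -3.79 to 0.57, unadjusted p = 0.131, edgeR adjusted p = 1.00), and its interval for *CXCL2* was -3.02 to 0.60. Since *CXCL1*, *CXCL2* and *CXCL3* may share reads, these are not 4 separate observations. With 2 libraries per construct, single libraries carried some of these signs. *CXCL8* lay below every shScr library in shEN1 #1 replicate 2 (0.235 CPM), and *CXCL3* lay above every one in shEN1 #2 replicate 2 (0.983 CPM). By contrast *LIF* differed by 0.0043 between constructs (95% interval -0.77 to 0.78) and *IL18* by 0.15 (-0.60 to 0.90).

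Although the label did not order them, the genes varied from library to library. The range of log2 CPM over 8 libraries was 3.59 for *CXCL3*, 3.45 for *CXCL8*, 2.58 for *CXCL2* and 1.88 for *CXCL1*, compared to a median of 0.76 over all genes tested. *IL18* (1.08), *LIF* (1.04) and *CXCL16* (0.72) were nearer to that median. Low counts widen such ranges. The SD of *CXCL1* CPM was 1.54 times what counting alone gives (at 2 counts per fragment), against 2.81 times for *CXCL2* and 2.05 times for *CXCL3* and *CXCL8*. It was 4.79 times for *CXCL16*, 5.90 times for *IL18* and 8.79 times for *LIF*. For a given relative spread this ratio rises with the count of a gene, so it does not rank the genes by how much they vary.

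The closest pair was *LIF* and *IL18*. Their centred log2 CPM differed by 0.268 (root mean square over 8 libraries), the smallest of 21 pairs, and both were lowest in shScr replicate 3 and in shEN1 #1 replicate 1. The pair most apart was *CXCL3* and *CXCL8*, at 1.64, both of the chromosome 4 cluster. This measure grows with the range of each gene. The ranges of *CXCL3* and *CXCL8* were the widest (3.59 and 3.45), and those of *LIF* and *IL18* were narrow (1.04 and 1.08). It therefore cannot tell unlike patterns from wide ranges. *CXCL1* and *CXCL2*, with the most alike transcripts, differed by 0.700, and *CXCL2* and *CXCL3* by 1.07. *CXCL8* was highest in shEN1 #1 replicate 1, where *LIF* was lowest.

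**Figure D3:**
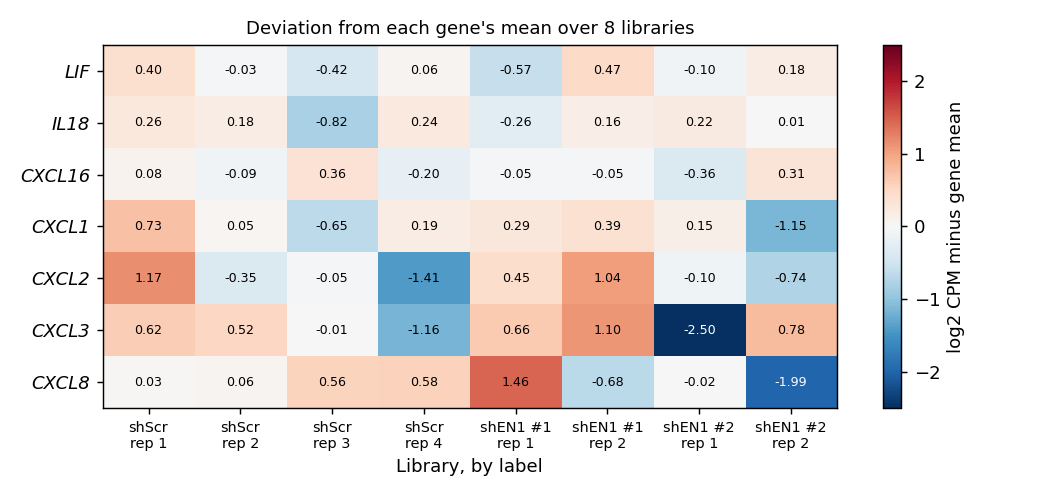
Log2 CPM minus the gene's mean over 8 libraries for the 7 tested genes (rows) in each library by label (columns), red above and blue below the mean. *LIF* and *IL18* are both low in shScr replicate 3 and shEN1 #1 replicate 1, and *CXCL3* falls to -2.497 in shEN1 #2 replicate 1.

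The genes nearest in pattern were sought for the 3 genes with the widest range. By the same measure, *CXCL3* lay nearest to identifier 100506352, which has no matched symbol (0.283), *C1QTNF1* (0.370) and *LAPTM5* (0.380), where the median gene lay at 1.17. *CXCL8* lay nearest to *MAOA* (0.405), *SLC3A1* (0.419) and *TPI1P2* (0.423), against a median of 0.990. *CXCL2* lay nearest to *ERP27* (0.230), with identifier 100288449 next (0.280), against a median of 0.856. None of the nearest genes was another of the 10. The nearest of all tested genes lie below the median by selection, so the median is no reference for a match. *CXCL3* and *CXCL8* fell to 2 counts in a library, so the patterns matched hold counting error. Whether the named genes vary together was not tested.

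Of 13 further CXC, CX3C and XC chemokines, 0 passed the filter and 8 had 0 counts throughout, among them the interferon-driven *CXCL9*, *CXCL10* and *CXCL11* and the stromal *CXCL12*. Of 18 further CC chemokines, 13 had 0 counts in all libraries and only *CCL28*, a mucosal chemokine, passed, at 0.784 to 1.59 CPM. Of 29 further cytokines, 9 passed and 9 were at 0. The highest per kb was *CLCF1*, another gp130 ligand, with 19.3 ± 5.89 CPM per kb beside the 18.8 of *LIF*. After it came *IL32* (3.005 ± 2.15), *IL7* (2.26 ± 0.511) and *IL15* (1.44 ± 0.401 CPM per kb). *TNF* and *CSF3* were at 0 throughout, and *IL6* was at 0 in all but the library labelled shEN1 #1 replicate 2 (0.0588 CPM).

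Receptors of these ligands were tested on the same libraries, since a cell may respond to what it secretes. Of 12 receptor genes, 6 passed the filter, 4 of them with a fold change above 0 and 2 below it, and 0 passed the adjusted test (edgeR; 0 also at an unadjusted p below 0.05). For LIF both chains were present, with *IL6ST* at 29.7 ± 3.69 CPM per kb and *LIFR* at 0.827 ± 0.335. *LIFR* measured 5.57, 6.90, 8.21 and 12.8 CPM in shScr, 10.5 and 5.56 CPM in shEN1 #1, and 14.6 and 5.62 CPM in shEN1 #2, so that the 2 highest libraries were those that stood apart. For IL-1α, *IL1RAP* stood at 1.99 ± 0.515 and *IL1R1* at 1.21 ± 0.215 CPM per kb. *CXCR2*, the receptor of the ELR chemokines, had 0 counts in all libraries, as had *ACKR1* and *IL18RAP*, and *CXCR1* was above 0 in 1 library.

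*IL1R1* was a gene whose groups did not overlap. It measured 5.996, 4.77, 5.97 and 5.31 CPM in shScr, 8.54 and 6.71 CPM in shEN1 #1, and 6.27 and 6.42 CPM in shEN1 #2, so each library labelled shEN1 lay above each labelled shScr. The log2 fold change was 0.34 (SE 0.19, 95% interval -0.08 to 0.76, unadjusted p = 0.101, edgeR adjusted p = 1.00), and it did not pass.

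**Figure D4:**
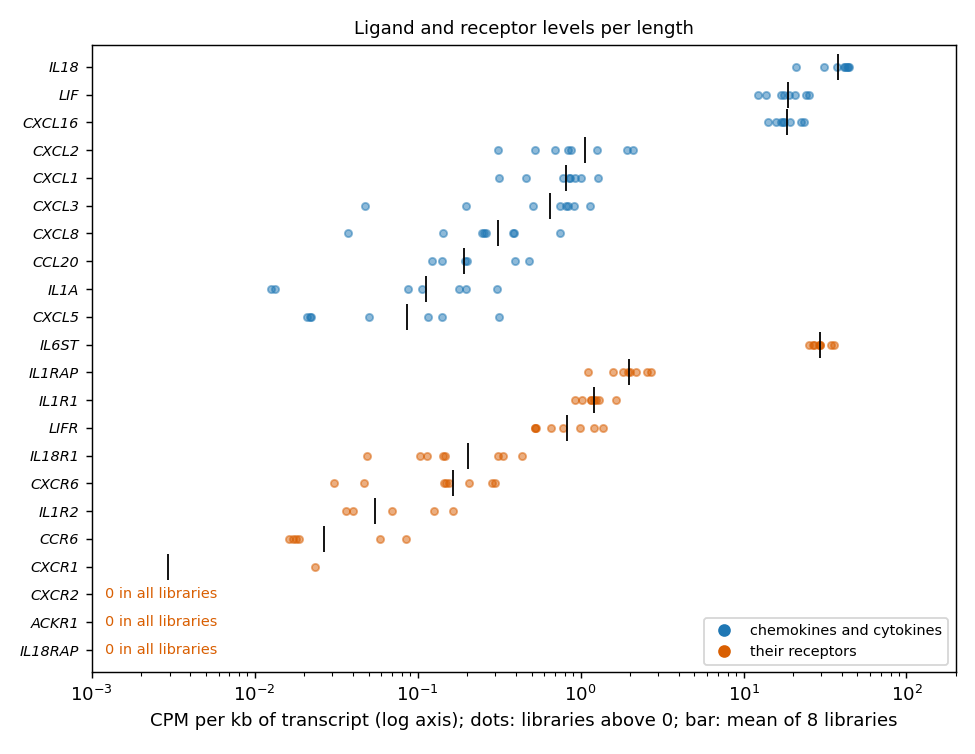
CPM per kb of transcript (x axis, log scale) of the 10 ligands (blue) and 12 receptor genes (orange), with a dot for each library above 0 and a bar for the mean of 8 libraries. *IL18*, *LIF*, *CXCL16* and *IL6ST* lie above 10 CPM per kb, and *CXCR2*, *ACKR1* and *IL18RAP* have 0 counts in all libraries.

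Among 14 genes that process or neutralize these cytokines, 11 passed the filter, with 5 higher, 6 lower and 0 past the adjusted test by edgeR (0 unadjusted). Transcripts of the calpains that cut pro-IL-1α were abundant, with *CAPN2* at 195 ± 28.1 and *CAPN1* at 128 ± 14.8 CPM per kb. *CAPNS1*, which encodes the small regulatory subunit of calpain, stood at 195 ± 22.1 CPM per kb. *CASP4*, an inflammatory caspase, followed at 44.1 ± 8.36 CPM per kb. *CASP1*, whose product cuts pro-IL-18, stood at 0.161 ± 0.154 CPM per kb, and *IL18* at 38.1. These RNA levels do not show whether pro-IL-18 is cut or by which protease, and neither was measured.

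Upstream of the chemokines, all 14 genes of NF-κB and IL-1 receptor signalling passed the filter. There were 12 fold changes above 0 and 2 below it (shEN1 over shScr), a median log2 fold change of 0.075 and 0 past the adjusted test (edgeR). Over the 63 tested genes of all lists but the cell markers, 39 were higher and 24 lower. The split of the 14 was not tested. The most abundant of the 14 per kb were *IRAK1* (269 ± 23.1 CPM per kb), *RELA* (62.8 ± 6.46), *MYD88* (29.7 ± 6.99) and *NFKB1* (28.98 ± 4.89). Of all genes, 0.307% had an unadjusted p below 0.05 by edgeR, fewer than evenly spread p-values would give. *REL*, encoding the NF-κB subunit c-Rel, was the only one of the 14 to do so. It measured 2.38, 3.803, 2.35 and 4.005 CPM in shScr, 4.54 and 4.53 CPM in shEN1 #1, and 5.28 and 5.62 CPM in shEN1 #2, without overlap. The log2 fold change was 0.67 (SE 0.26, 95% interval 0.10 to 1.24, unadjusted p = 0.0247), but the edgeR adjusted p = 1.00, and it lay at 1.00 under every alternative run. The unadjusted p rose to between 0.0506 and 0.0656 without shScr replicate 1 or 3 or without either library of shEN1 #2. *REL* and *IL1R1* were 2 of 63 tested genes over these lists (3.17%) whose groups did not overlap, against 0.419% of all genes. *REL* and *IL1R1* were singled out after their values were seen. The 2 shares were not compared by a test, and 2 genes are too few to show an excess. The share over all genes is also not the share that random labels would give, which was not computed.

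The 16 NF-κB feedback and target genes divided into 9 higher and 7 lower with 0 past the adjusted test (edgeR; 0 unadjusted), *TNFAIP2* (38.4 ± 13.97 CPM per kb), *TNIP1* (28.6 ± 2.31), *TNIP2* (26.5 ± 2.72) and *NFKBIB* (25.7 ± 3.37) being the most abundant. The 6 genes of LIF receptor signalling divided into 3 and 3 with 0 past the adjusted test (0 unadjusted), led by *JAK1* (45.1 ± 5.53), *STAT3* (22.7 ± 5.48), *PIM1* (18.4 ± 3.55) and *TYK2* (15.8 ± 2.18 CPM per kb). *STAT3*, the effector of LIF, measured 124, 108, 74.6 and 140 CPM in shScr, 69.3 and 120 CPM in shEN1 #1, and 141 and 114 CPM in shEN1 #2. Its 2 lowest libraries, shScr replicate 3 and shEN1 #1 replicate 1, were also the 2 lowest of *LIF* and *IL18*. The pattern was not particular to these genes. In the same 2 libraries *IL1RAP* was lowest as well (5.28 and 7.45 CPM), while *CSF1* was highest (4.05 and 4.03 CPM). A link between *LIF* and *STAT3* was not tested.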

How the data were processed

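Per the methods, the authors used HISAT2 (hg19) for paired-end alignment and featureCounts for counting, and deposited raw counts per gene for each library. The submitters' processing notes name mm9 as build, but the tables list human gene numbers, and the annotation and strand setting are not given in the sources used here. Of 25702 gene numbers, 23696 matched a symbol. Positions came from GENCODE's annotation lifted to GRCh37.

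Low counts were removed by filterByExpr (minimum count 10), which kept 14333 genes. Counts were scaled with TMM factors (0.962 to 1.07) and tested with edgeR 4.0.16 (glmQLFit, robust) in R 4.3.3, pooling both constructs against shScr, and in a fit with 3 groups. Standard errors are the log2 fold change over the square root of F, and intervals use edgeR's degrees of freedom. Centred log2 CPM used a prior count of 2. Scripts were tested on simulated data. Genes and lists were chosen with earlier results of these data known. Named were *EN1*, the 10 genes, the 4 most abundant tested genes of each list, any that passed, and the 3 nearest patterns of the 3 most variable genes; others are named for a count of 0, their link to one of the 10, or groups without overlap. Alternatives were other scalings, DESeq2 1.42.0, limma-voom 3.58.1, other filters, a replicate block and leaving out each library; leaving out both libraries that stood apart was added after seeing the data. Murine organoid samples were not analysed here.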

Additional observations from a re-analysis of the deposited data

Results flagged for a closer look

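Within the 4 libraries labelled shScr, replicate 3 lay far from the others for 2 of the 10 genes. *IL18* measured 23.5 CPM there, below 46.8 to 49.6 CPM in the other three, with a gap of 0.892 of the group's range. *CXCL5* measured 0.344 CPM there, above 0 to 0.0539 CPM, with a gap of 0.843 of the range, and rests on few counts. Both gaps exceed the 95% limit of Dixon's test for 4 values. Of 22 groups examined, 2 were flagged, where chance gives about 1.1 (1 in 20).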

How the results depend on the processing

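None of the 5 to 10 of these genes tested under each alternative (10 only without a filter) passed an adjusted p of 0.05. Over all genes, the pooled comparison gave 0 by edgeR, 2 by DESeq2, 0 to 1 when leaving out a library (1, *VAMP7*, without shScr replicate 4), 1 without both libraries that stood apart, and 44 at an unadjusted p. For shEN1 #1 the counts were 0 by edgeR, 3 by DESeq2, 1 without a filter, 0 when leaving out a library labelled shScr, and 94 unadjusted. Unadjusted counts were 43 for shEN1 #2, 153 between constructs and 1 over the lists (*REL*). Leaving out a library moved the pooled count to between 32 and 96. For the constructs, counts are given only without a library labelled shScr, since otherwise a construct keeps 1 library. They were 56 to 187 for shEN1 #1 (187 without shScr replicate 1, 56 without shScr replicate 4). For shEN1 #2 they were 33 to 337, and between constructs 126 to 374 (337 and 374 without shScr replicate 4). Pooled, 88 came without shScr replicate 4, 96 without shEN1 #2 replicate 1 and 72 without shEN1 #1 replicate 1. In the pooled comparison these chemokine and cytokine genes gave 0 each time, and the lists 0 to 1. Correlations of deviations from the group mean ran from -0.33 to 0.44 for same-numbered libraries. They cannot show or exclude a pairing by replicate number, because the deviations of the 2 libraries of a construct mirror each other. The highest, 0.73, joined shScr replicate 4 and shEN1 #2 replicate 1, whose numbers differ. The replicate block gave 1 gene pooled and 1 for shEN1 #1. Under the block, log2 fold changes turned to -0.21 for *CXCL2*, -0.25 for *CXCL3*, -0.17 for *IL18* and -0.20 for *LIF*. With limma-voom *CXCL3* came to -0.15 and *LIF* to -0.0035, and without both libraries *CXCL8* came to 0.049. Leaving out a library gave -0.33 to 0.14 for *CXCL1*, -0.18 to 0.85 for *CXCL2*, 0.069 to 0.76 for *CXCL3*, -1.15 to 0.23 for *CXCL8*, -0.20 to 0.052 for *CXCL16*, -0.18 to 0.11 for *IL18*, -0.16 to 0.18 for *LIF*, 0.057 to 0.57 for *EN1*, 0.55 to 0.81 for *REL* and 0.23 to 0.39 for *IL1R1*. The cause was not tested. The ELR chemokines, *CCL20* and *IL1A* rest on at most 78 counts in a library. For the tested ELR chemokines the SD was also 1.54 to 2.81 times what counting alone gives (at 2 counts per fragment).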
